A study of Mus musculus with 4 samples.

Results

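Collagens and laminins are the structural chains of the extracellular matrix. A gene was included if its symbol had the form of a collagen chain (Col, a number, a, a number) or of a laminin chain (Lama, Lamb or Lamc and a number), a rule on the symbol alone that was set with earlier results of these data known. This gave 55 of the 31053 genes in the count matrices, 44 collagen and 11 laminin chains. The samples were whole brains of 4 C57BL/6J mice, all male and aged P90 (90 days after birth), with 1 library per animal. They were dissociated with enzymes at 37 °C and profiled by droplet single-cell RNA-seq with unique molecular identifiers (UMIs, which count each captured RNA molecule once). In 2 animals no inhibitor was used. In the other 2 animals the transcription inhibitors actinomycin D and triptolide were present from perfusion through digestion, and the translation inhibitor anisomycin was added for dissection and digestion. The meninges were removed from all 4 brains as far as possible, which limits the fibroblasts and pial cells that could be recovered, and cells were not sorted. The questions were which cell classes carried each chain and whether the inhibitors moved any of them.

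Collagen chains wind into trimers and fall into classes by the structure they build. Fibril-forming chains make tensile fibres, type IV chains make the network of basement membranes, type VI chains make beaded filaments around cells, and type VIII chains make short-chain networks. A laminin is a trimer of an alpha, a beta and a gamma chain, and laminins polymerise into the other main sheet of a basement membrane. In the brain, basement membranes surround the endothelial tube and its mural cells (pericytes and smooth muscle), and a further one lies under the pia and against astrocyte endfeet.

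Type IV chains are encoded in head-to-head pairs. Col4a1 and Col4a2, the chains of the common type IV trimer, lie on opposite strands, and their first exons overlap by 22 bases between the RefSeq starts. Col4a3 and Col4a4, chains of a rarer trimer, have 71 bases between the RefSeq start of Col4a4 and the first annotated exon of Col4a3 (GENCODE). Col4a5 and Col4a6 have 1342 bases between their RefSeq starts. The stretches that join the first pairs are given on the plus strand of GRCm38, because the counts of each pair are compared below; capitals mark a GC box, GGGCGG on either strand.
Col4a1 and Col4a2, first-exon overlap, chr8:11312805-11312826: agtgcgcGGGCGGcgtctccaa
Col4a3 and Col4a4, between starts, chr1:82586850-82586920: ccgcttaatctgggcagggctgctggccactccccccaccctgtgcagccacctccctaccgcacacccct

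RefSeq (GRCm38) gave a promoter window for 40 of the 55 chains. In the 250 bases before the start, GGGCGG was found on either strand in 23 of these 40 windows and in 32.7% of all 32851 RefSeq windows. CCAAT was found in 13 of 40 and 33.8% of all, and TATAAA in 5 of 40 and 12.4% of all. A match describes letters only.

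The 4 libraries held 5134359 to 7529804 UMIs. After filters on genes per cell, mitochondrial share and doublets, 9861 of 12487 barcodes remained, 2089 to 2810 per animal, with median depths of 1441.5 to 1686 UMIs, and any pair of libraries had 9 to 13 barcodes in common. Cells were clustered with the chains and other matrix genes left out, and the clusters were named by markers into 15 classes, of which 13 had at least 10 cells in every animal. The other classes were 73 erythrocyte-like cells and 61 olfactory ensheathing-like cells, the latter from replicate 1 of each group only. A level is the UMIs of a chain per 1000000 UMIs of the class in an animal (CPM), given as mean ± SD over the 4 animals. Since a 3′ UMI counts a molecule once whatever its length, levels were not scaled by length, and comparisons between chains are of captured molecules. In such class sums, fewer cells with a chain and less RNA per cell cannot be told apart. Levels by class are a description with no test.

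The smooth muscle-like class also carried markers of other cells. Its 187 cells were led by the contractile genes Tagln, Acta2 and Myh11, but the 9 endothelial markers summed to 12590 to 14211 CPM across animals, against 22614 to 23915 CPM in endothelial-like cells and 142 to 919 CPM in pericyte-like cells. Erythrocyte markers reached 1557 to 50208 CPM in the same class. Its 8 smooth muscle markers summed to 4625 to 7956 CPM beside 8 pericyte markers at 4706 to 6943 CPM, and the pericyte markers were the higher of these in replicate 2 with inhibitors. Of the 187 cells, 38 had a lower endothelial-marker share than any endothelial-like cell, a limit chosen after the data were seen. Acta2 stood at 15398 CPM in these 38 cells and at 678 CPM in the other 149. Cldn5, a tight-junction gene of endothelium, stood at 76.9 and 2959 CPM. Cldn5 is among the 9 endothelial markers used for this split, so its lower level in the 38 cells follows from the limit. Rgs5, a pericyte marker, stood at 2724 and 3572 CPM. Levels of single chains in the class are therefore given for all 187 cells and for the 38. The level summed over chains and the ratios of chains are for all 187 cells. The erythrocyte-like cells also carried endothelial markers (7911 to 13271 CPM) beside Col4a1 at 120.5 ± 49.4 CPM, and they were left out of the comparison of classes. The part of these markers in the levels, and in the order of smooth muscle-like, pericyte-like and endothelial-like cells, was not tested.

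Markers of a neighbouring class were present in other classes too. Pericyte-like cells had fibroblast markers at 1312 to 2487 CPM, against 2092 to 2500 CPM in fibroblast-like cells, and smooth muscle markers at 2723 to 4306 CPM, beside their own 8 pericyte markers at 15519 to 19319 CPM. Oligodendrocyte precursor-like cells had oligodendrocyte markers at 15007 to 31864 CPM, against 51148 to 55976 CPM in oligodendrocyte-like cells, and their own markers at 4539 to 7691 CPM. Fibroblast-like cells had 9 astrocyte markers at 2040 to 2870 CPM, against 17770 to 19594 CPM in astrocyte-like cells. These stood above their own 12 fibroblast markers in all animals but replicate 1 with inhibitors. Endothelial markers in fibroblast-like cells were at 795 to 2449 CPM. The part of these markers in the chain levels was not tested.

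The chains held 12862 of 20760829 UMIs. Fibroblast-like cells, 1.32% of cells, carried 2572 of these UMIs, and endothelial-like cells, 17.4% of cells, carried 2911. Microglia-like cells, 32.6% of cells, carried 1073. Summed over the 55 chains, the level was 4082 ± 106 CPM in fibroblast-like, 2188 ± 273 CPM in pericyte-like, 1641 ± 222 CPM in smooth muscle-like and 771 ± 47.99 CPM in endothelial-like cells. Oligodendrocyte-like cells (117 ± 24.2 CPM), macrophage or monocyte-like cells (73.1 ± 51.1 CPM) and neural progenitor-like cells (59.7 ± 12.4 CPM) were at the low end. Pericyte-like cells had laminins at 1083 ± 214 CPM beside collagens at 1106 ± 147 CPM, and fibroblast-like cells had laminins at 462 ± 63.02 CPM beside collagens at 3620 ± 69.1 CPM, a description of classes that share fibroblast markers.

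Of the 55 chains, 29 reached a mean of 50 CPM in at least 1 of the 13 classes. The highest class was the fibroblast-like class for 12 of them, the pericyte-like class for 6, the smooth muscle-like class for 4, the ependymal-like and oligodendrocyte precursor-like classes for 3 each and the microglia-like class for 1. The highest class was the same in 4 of 4 animals for 17 of the 29. Col15a1 lay just inside this limit (50.5 CPM) and Col4a5 just outside it (43.5 CPM). The other 26 chains were sparse. Col10a1, a chain of growth-plate cartilage, and Col6a6 had 0 UMIs, which allows up to 0.145 CPM over all kept cells, 5 chains had 1 to 9 UMIs, 18 had 10 to 99, and Col4a5 had 136.

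**Figure D1:**
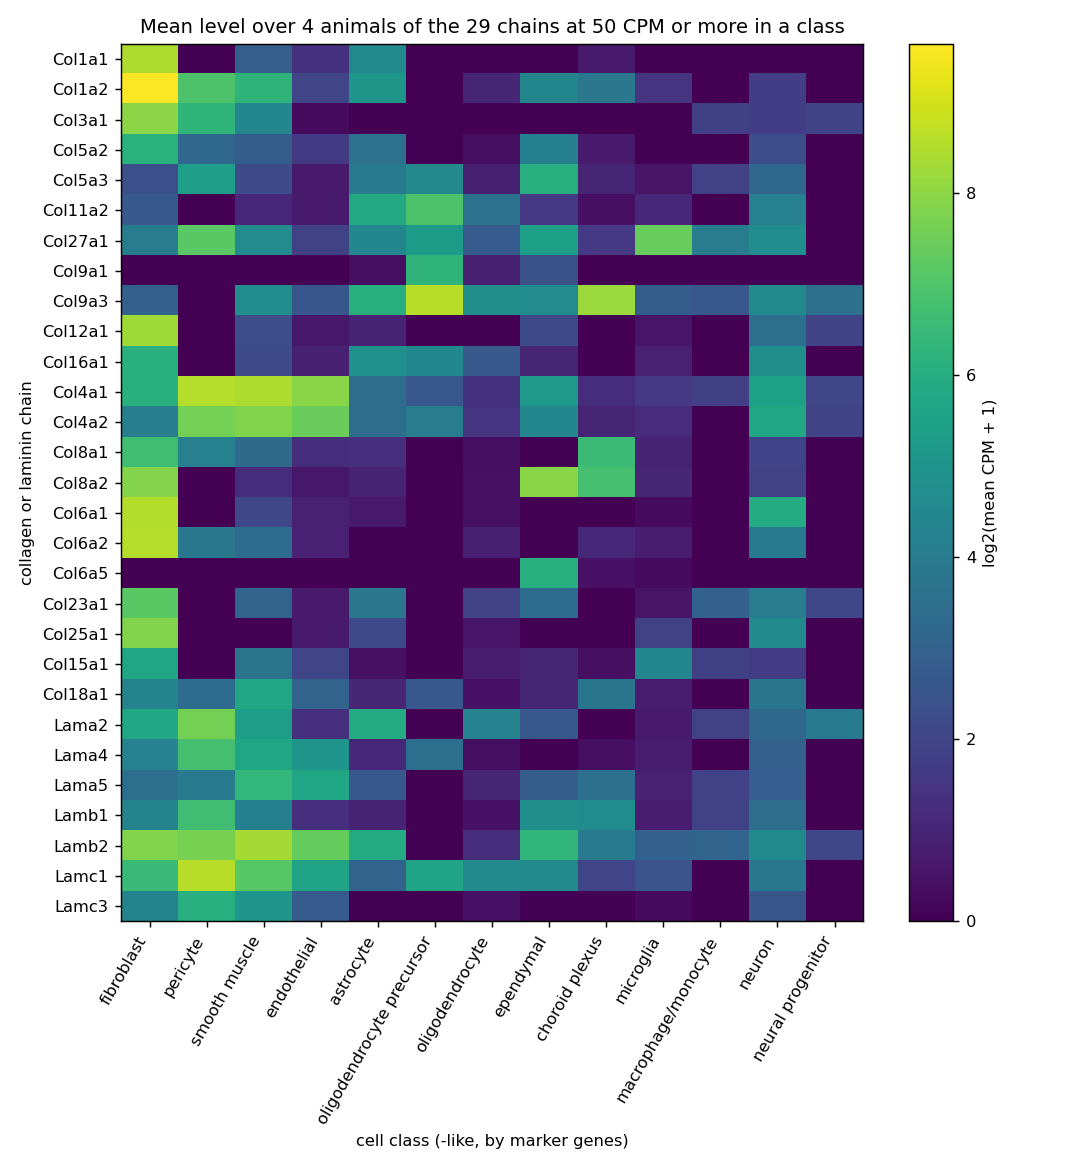
Colour gives log2(mean CPM + 1) over 4 animals for the 29 chains that reached 50 CPM (rows) in the 13 classes (columns). The fibroblast-like column holds the highest level of 12 chains, and the pericyte-like column that of 6.

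Type IV chains were analysed first. In pericyte-like cells Col4a1 stood at 299.5 and 446 CPM without and 454 and 295 CPM with inhibitors. In endothelial-like cells it stood at 221 and 230.01 CPM without and 261 and 254 CPM with inhibitors. Pericyte-like cells were above endothelial-like cells in 4 of 4 animals, by less in replicate 2 with inhibitors than in the others. The smooth muscle-like class had 349 ± 45.4 CPM over all cells and 248 ± 110.2 CPM in the 38 cells with few endothelial markers, and its order with pericyte-like cells changed between animals. Endothelial-like cells, the most numerous of the 3 classes, held 62.6% of the 1463 Col4a1 UMIs and pericyte-like cells 3.69%.

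Col4a2 followed the same classes. In endothelial-like cells it stood at 161 and 165 CPM without and 199 and 171 CPM with inhibitors. In pericyte-like cells the values were 37.4 and 213 CPM without and 284 and 262 CPM with inhibitors, the lowest from 1 UMI. Among the 29 chains, Col4a1 and Col4a2 had the highest correlation over the 13 class means (Pearson r = 0.95 on log2(CPM + 1)), a description over classes that share libraries and depth. Per UMI of Col4a2, endothelial-like cells gave 1.37, 1.40, 1.31 and 1.49 UMIs of Col4a1 in the 4 animals, and smooth muscle-like cells gave 1.47, 1.31, 1.54 and 1.88. The ranges overlapped. Of the smooth muscle-like UMIs, 264 of 285 for Col4a1 and 167 of 185 for Col4a2 came from the 149 cells that carry endothelial markers. The overlap therefore cannot show whether the ratio differs between endothelial and smooth muscle cells.

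Deeper cells yield more chain UMIs, so shares of cells were also compared at 1000 UMIs per cell. At that depth 19.3% ± 2.56 of endothelial-like cells had a Col4a1 UMI (35.1% ± 3.89 without thinning, median depth 1769), against 0.0801% ± 0.0926 of microglia-like cells (median depth 1381), a class that should lack it. In pericyte-like cells the share was 27.3% ± 13.3, from 11 to 22 cells per animal. The pairs of minor type IV chains were rare. Col4a3 and Col4a4 had 39 and 58 UMIs, of which 20 and 22 were in choroid plexus-like cells, and Col4a6 had 22.

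The laminin alpha chains differed in the vascular classes they were found in. Lama5, an alpha chain of mature vascular and epithelial basement membranes, stood at 45.4 and 44.98 CPM without and 60.4 and 50.02 CPM with inhibitors in endothelial-like cells, while 2 UMIs were counted in pericyte-like cells of all 4 animals together. These 2 UMIs have an exact 95% Poisson interval of 1.74 to 51.8 CPM, which covers counting error only and includes the endothelial-like level, so a difference was not detectable at this depth. Smooth muscle-like cells were above endothelial-like cells in 4 of 4 animals (82.8 ± 13.6 CPM over all cells). In the 38 cells with few endothelial markers the level was 169 ± 100.4 CPM, from 17 UMIs, and in the other 149 it was 69.9 ± 8.94 CPM.

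Lama2, the alpha chain whose loss causes a congenital muscular dystrophy, was highest in pericyte-like cells among the 13 classes. Pericyte-like cells had 299.5 and 149 CPM without and 114 and 229.7 CPM with inhibitors, first among the 13 classes in 4 of 4 animals, although from 26 UMIs. Endothelial-like cells had 6 UMIs, a level of 1.44 ± 1.03 CPM. Astrocyte-like (60.3 ± 11.1 CPM) and fibroblast-like cells (54.1 ± 9.06 CPM) came next and overlapped. The fibroblast-like level joins a 33-cell cluster at 234 ± 154 CPM, from 15 UMIs, with a 97-cell cluster at 32.3 ± 12.8 CPM. At 1000 UMIs per cell, 5.78% ± 0.391 of astrocyte-like cells had a Lama2 UMI, beside 0.0502% ± 0.100 of endothelial-like cells.

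Lama4, an alpha chain of vessel walls, was found across vascular cells. It stood at 111 ± 57.5 CPM in pericyte-like, 49.7 ± 14.4 CPM in smooth muscle-like and 31.9 ± 1.78 CPM in endothelial-like cells. Over the 13 classes the chain most like Lama4 was Lamc3 (r = 0.90). Lama1, an early embryonic and pial alpha chain, had 21 UMIs, 13 of them in fibroblast-like cells, and Lama3 had 53 UMIs in all.

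Among beta chains Lamb2 was the broadest, passing 50 CPM in 6 classes, the most of any chain. Smooth muscle-like cells had 383 and 225 CPM without and 374 and 296 CPM with inhibitors and were first in 4 of 4 animals, and the 38 cells with few endothelial markers had 436 ± 176 CPM. Fibroblast-like (225 ± 56.5 CPM) and pericyte-like cells (199 ± 37.5 CPM) overlapped, and endothelial-like cells had 165 ± 16.4 CPM. Ependymal-like (80.9 ± 19.9 CPM) and astrocyte-like cells (59.9 ± 15.8 CPM) were lower. Lamb1, its paralogue, was at 102 ± 70.2 CPM in pericyte-like cells, from 13 UMIs, and at 1.55 ± 1.33 CPM in endothelial-like cells.

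Lamc1, the gamma chain of most laminins, was highest of the 13 classes in pericyte-like cells in 4 of 4 animals, at 562 and 340.1 CPM without and 341 and 328 CPM with inhibitors. Smooth muscle-like cells followed at 141 ± 25.6 CPM (125 ± 75.9 CPM in the 38 cells, from 11 UMIs), fibroblast-like cells at 92.8 ± 12.99 CPM and endothelial-like cells at 48.9 ± 5.04 CPM. Lamc3 stood at 65.6 ± 93.7 CPM in pericyte-like cells, where 2 of 4 animals had none. Col18a1, a basement-membrane proteoglycan that releases endostatin, was highest of the 13 classes in the smooth muscle-like class (53.9 ± 27.7 CPM). In the 38 cells it was at 69.8 ± 36.1 CPM, from 6 UMIs.

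**Figure D2:**
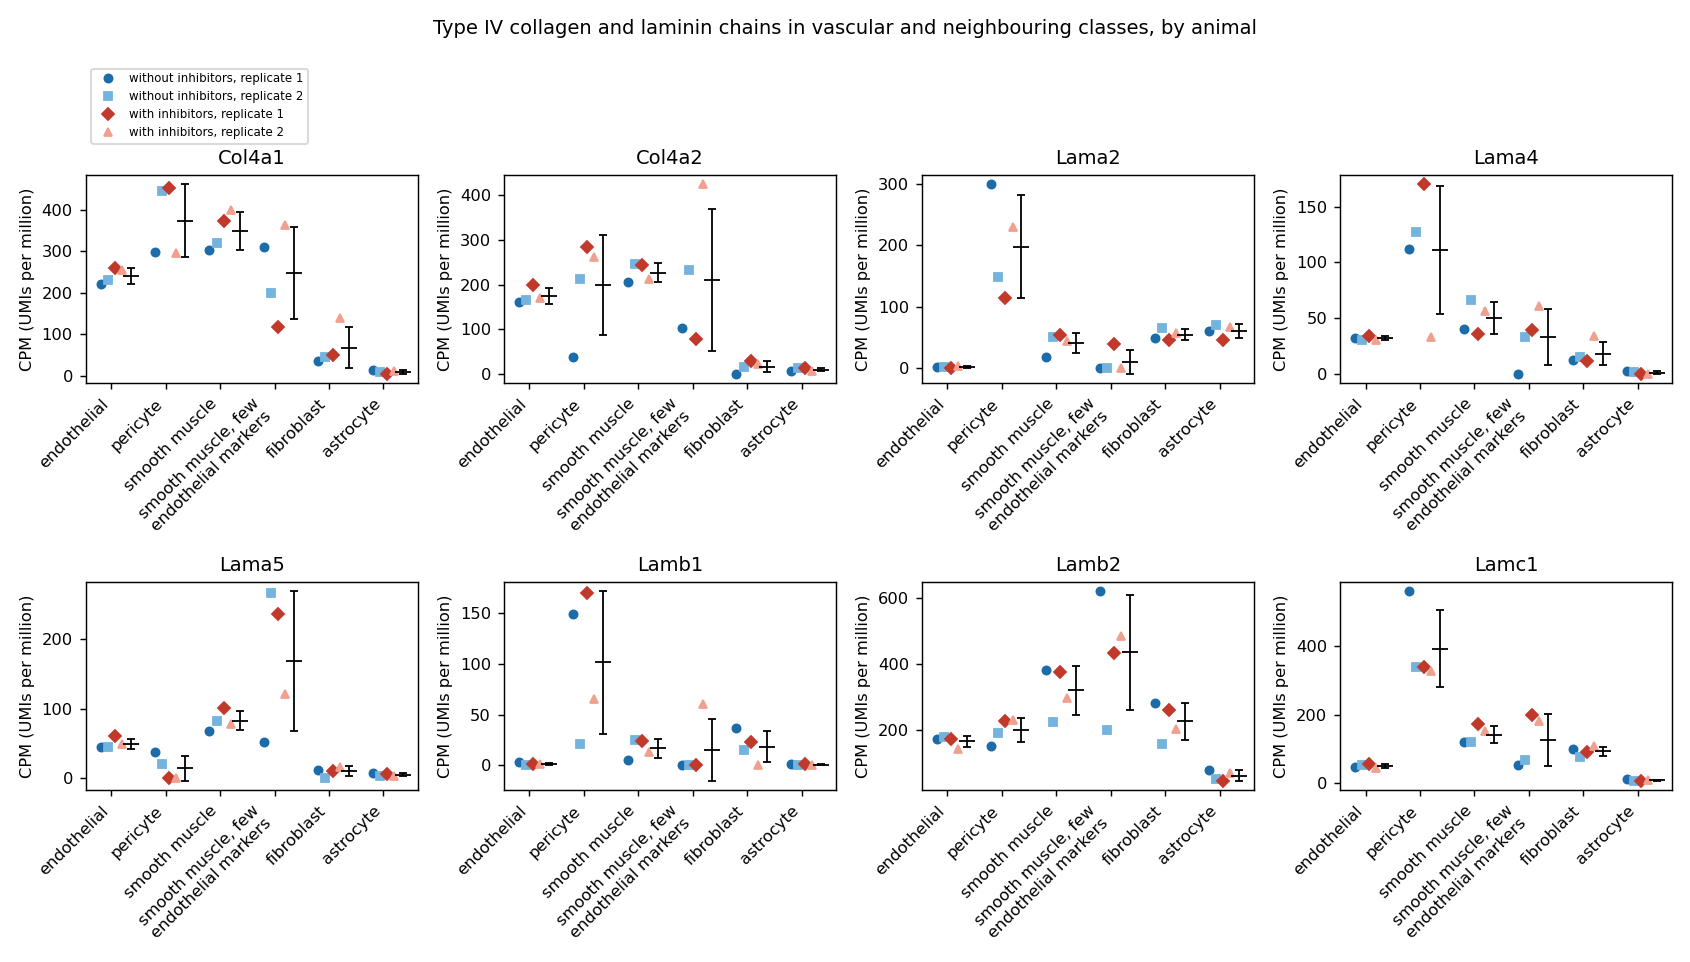
Each panel gives the CPM (UMIs per 1000000) of 1 chain by class, with a symbol per animal and the mean ± SD over 4 animals in black, and smooth muscle-like cells with few endothelial markers shown apart. Lama2 is near 0 in endothelial-like cells and Lamc1 is highest in pericyte-like cells in every animal.

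The type I and type III chains and the type VI chains Col6a1 and Col6a2 were highest in the fibroblast-like class. Col1a2, a chain of type I collagen, had 819 and 801 CPM without and 810.5 and 758 CPM with inhibitors there, the highest level of any chain in the 13 classes. Pericyte-like cells were next at 124 ± 78.9 CPM. At 1000 UMIs per cell 58.03% ± 5.56 of fibroblast-like cells had a Col1a2 UMI (86.3% ± 5.67 without thinning, median depth 3641) and 0.181% ± 0.0599 of microglia-like cells did.

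Each of the following chains was first in fibroblast-like cells among the 13 classes in 4 of 4 animals. Col1a1, the other type I chain, stood at 349.7 ± 95.1 CPM and Col3a1, of reticular fibres, at 248 ± 75.6 CPM. The type VI chains Col6a1 and Col6a2 stood at 366 ± 59.2 CPM and 382 ± 76.3 CPM, and Col6a1 was also at 59.7 ± 31.6 CPM in neuron-like cells. Col12a1, which binds the surface of fibrils, stood at 304 ± 21.3 CPM with 83.6% of its UMIs in the class. The transmembrane chains Col25a1, first known from amyloid plaques, and Col23a1 stood at 222 ± 58.3 CPM and 143 ± 26.2 CPM. Olfactory ensheathing-like cells, outside the 13 classes, had a higher Col23a1 level, which is given below.

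Partner chains were captured at different ratios. Col6a1 gave 0.962, 0.965, 0.901 and 1.04 UMIs per UMI of Col6a2 in the fibroblast-like cells of the 4 animals. Col1a1 gave 0.567, 0.342, 0.483 and 0.356 per UMI of Col1a2, below 1 in every animal. The chain most like Col6a1 over the classes was Col25a1 (r = 0.93), and that most like Col1a2 was Col5a2, a minor fibril chain at 69.7 ± 18.4 CPM (r = 0.89).

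The fibroblast-like class was made of a 97-cell and a 33-cell cluster with different chains. The chains had no part in the clustering, but other genes of the same cells did, so the values are a description. Col8a2 had 141 UMIs in the 97 cells and 0 in the 33, Col25a1 145 and 0, and Col6a2 248 and 1. Conversely, Col15a1, a collagen of the basement membrane zone, had 0 UMIs in the 97 cells and 28 in the 33, Lama1 0 and 13, Lamc3 0 and 13, and Lamb1 0 and 10. The median depth was 4423 UMIs in the 97 cells and 1718 in the 33, and a count of 0 allows up to 5.31 CPM and 43.8 CPM.

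Levels differed as well as presence. Col4a5 was at 259 ± 116 CPM in the 33 cells and 5.22 ± 6.81 CPM in the 97, and Lamc1 at 354 ± 54.2 and 57.8 ± 10.2 CPM. Col1a1 (858 ± 314 against 277 ± 71.7 CPM), Col1a2 (1173 ± 111 against 748 ± 35.1 CPM) and Col3a1 (545 ± 96.6 against 209 ± 81.6 CPM) were also higher in the 33 cells, all of these in 4 of 4 animals. Col6a1 was lower there in 4 of 4 animals (145 ± 60.04 against 394 ± 55.1 CPM). Lama2 was higher in the 33 cells in 4 of 4 animals (234 ± 154 against 32.3 ± 12.8 CPM) and Col18a1 in 3 of 4 (171 ± 191 against 3.58 ± 7.16 CPM). Lamb1 stood at 177 ± 119 CPM and Lamc3 at 206 ± 147 CPM in the 33 cells. These means, from 10 to 15 UMIs per chain, lay above that of the class named highest for each chain. Lamc1 in the 33 cells was above pericyte-like cells in both animals with inhibitors, at 362 and 345 CPM. Lamb2 (227 ± 80.7 against 225 ± 70.98 CPM) and Col12a1 (278 ± 193 against 309 ± 32.2 CPM) overlapped.

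**Figure D3:**
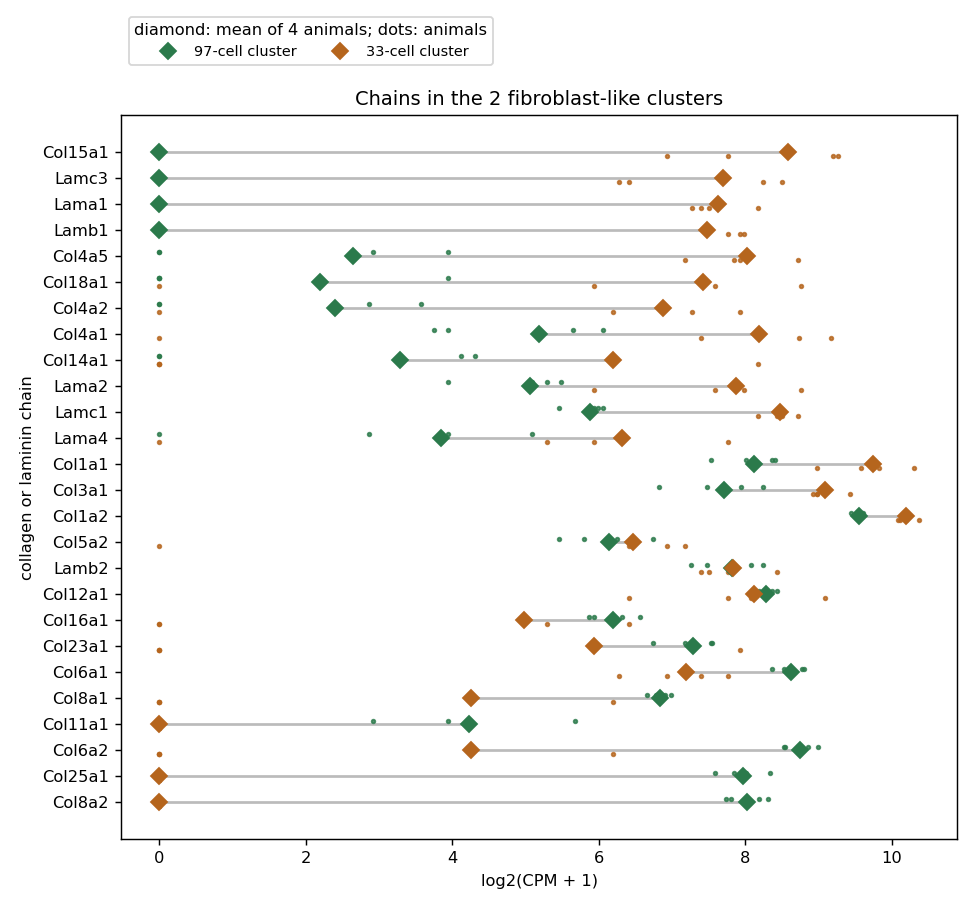
For each chain, log2(CPM + 1) is shown in the 97-cell and the 33-cell fibroblast-like cluster, diamonds being the mean of 4 animals and dots the animals. Col8a2 and Col25a1 are at 0 in the 33 cells, and Col15a1, Lama1, Lamb1 and Lamc3 are at 0 in the 97 cells.

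Microglia-like cells had 1 chain at a high level. Col27a1, a fibril-forming chain known from cartilage, stood at 150.2 and 165 CPM without and 191 and 169.5 CPM with inhibitors, and these cells held 76.5% of its 1006 UMIs. At 1000 UMIs per cell 15.6% ± 0.926 of microglia-like cells had a Col27a1 UMI (20.9% ± 2.31 without thinning), against 0.841% ± 0.681 of oligodendrocyte-like cells (median depth 2786). The large microglia-like clusters, of 1981 and 1190 cells, had 167 ± 24.3 and 173 ± 15.96 CPM. Pericyte-like cells, with 142 ± 83.6 CPM from 19 UMIs, were above microglia-like cells in 1 of 4 animals and not separable from them, and macrophage or monocyte-like cells had 15.7 ± 24.7 CPM. Col15a1 followed in microglia-like cells at 21.1 ± 4.68 CPM, and every other chain there was under 8 CPM.

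Chains known from cartilage were also found in glia. Col9a3, a fibril-associated chain, stood at 495 and 302 CPM without and 477 and 292 CPM with inhibitors in oligodendrocyte precursor-like cells and at 265 and 308 CPM without and 315 and 287 CPM with inhibitors in choroid plexus-like cells, which led in 1 of 4 animals. Oligodendrocyte-like cells, whose markers the precursor-like cells also carried, had 26.1 ± 7.70 CPM. Col11a2, a minor fibril chain, stood at 61.9 and 173 CPM without and 71.6 and 188 CPM with inhibitors in precursor-like cells and at 57.3 ± 9.77 CPM in astrocyte-like cells. Col9a1, a partner of Col9a3, was at 78.96 ± 80.01 CPM in precursor-like cells, from 14 UMIs.

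The astrocyte-like class was made of 4 clusters. One of these, of 71 cells led by Gdf10, had 8 astrocyte and 3 olfactory ensheathing markers that stood out. Among its top 10 genes were 0 astrocyte markers and 1 olfactory ensheathing marker (Mybpc1). The astrocyte-like clusters of 972 and 739 cells also had 0 astrocyte markers among their top 10 genes, so that count does not set the 71 cells apart. Their place in the class rests on the 8 markers. It had Col9a3 at 275 ± 36.4 CPM and was above the other 3 clusters (44.00 to 53.9 CPM) in every animal. Type I chains were low in astrocyte-like cells, Col1a2 at 33.6 ± 8.91 CPM and Col1a1 at 23.02 ± 6.10 CPM. At 1000 UMIs per cell 3.41% ± 1.15 of astrocyte-like cells had a Col1a2 UMI.

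Ependymal-like cells, which line the ventricles, had Col8a2, a type VIII chain, at 263 and 212 CPM without and 221 and 262 CPM with inhibitors. Fibroblast-like cells had 229 ± 35.1 CPM, and the order changed in 1 of 4 animals. At 1000 UMIs per cell 22.8% ± 5.61 of ependymal-like cells had a Col8a2 UMI, against 0.0673% ± 0.135 of microglia-like cells. Col6a5, a type VI chain, had 96.2% of its 52 UMIs in ependymal-like cells (65.2 ± 27.2 CPM), and Col5a3 stood at 65.9 ± 30.8 CPM. In the olfactory ensheathing-like cells, seen in 1 animal of each group, Col23a1 was at 215 CPM without and 213 CPM with inhibitors.

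Choroid plexus-like cells had Col9a3, Col8a2 (109.5 ± 15.2 CPM) and Col8a1 (95.05 ± 28.8 CPM) as their main chains. Col8a1 and Col8a2 are the chains of type VIII collagen, known from the corneal and vascular endothelium. The stretches before their starts are shown because both chains were high in choroid plexus-like and fibroblast-like cells and their inhibitor comparison is given below. Each is written along its gene (RefSeq, GRCm38), with GGGCGG or its reverse complement in capitals; in Col8a2 the last 2 matches overlap, and neither stretch held TATAAA or CCAAT.
Col8a1, minus strand, chr16:57754738-57754987: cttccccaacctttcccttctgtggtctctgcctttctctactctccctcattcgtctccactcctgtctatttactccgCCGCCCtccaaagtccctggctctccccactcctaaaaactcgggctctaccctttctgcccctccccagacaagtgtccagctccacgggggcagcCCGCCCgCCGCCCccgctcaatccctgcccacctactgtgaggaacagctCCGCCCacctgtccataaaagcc
Col8a2, plus strand, chr4:126286544-126286792: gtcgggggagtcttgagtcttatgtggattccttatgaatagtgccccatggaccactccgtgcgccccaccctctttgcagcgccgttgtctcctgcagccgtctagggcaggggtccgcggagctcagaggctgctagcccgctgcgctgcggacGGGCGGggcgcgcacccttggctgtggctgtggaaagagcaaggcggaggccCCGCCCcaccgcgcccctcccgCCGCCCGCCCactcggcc

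The choroid plexus-like class had a cluster of 583 cells and one of 37 cells, with median depths of 1963 and 12540 UMIs. Col8a1 was at 276 ± 35.6 CPM in the 37 deep cells and 51.3 ± 19.8 CPM in the others, Col8a2 at 299 ± 21.00 and 64.3 ± 19.8 CPM, and Col9a3 at 481 ± 85.7 and 249.7 ± 41.1 CPM. Each was higher in the deep cells in 4 of 4 animals. The deep cells numbered 12 and 17 without and 5 and 3 with inhibitors.

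**Figure D4:**
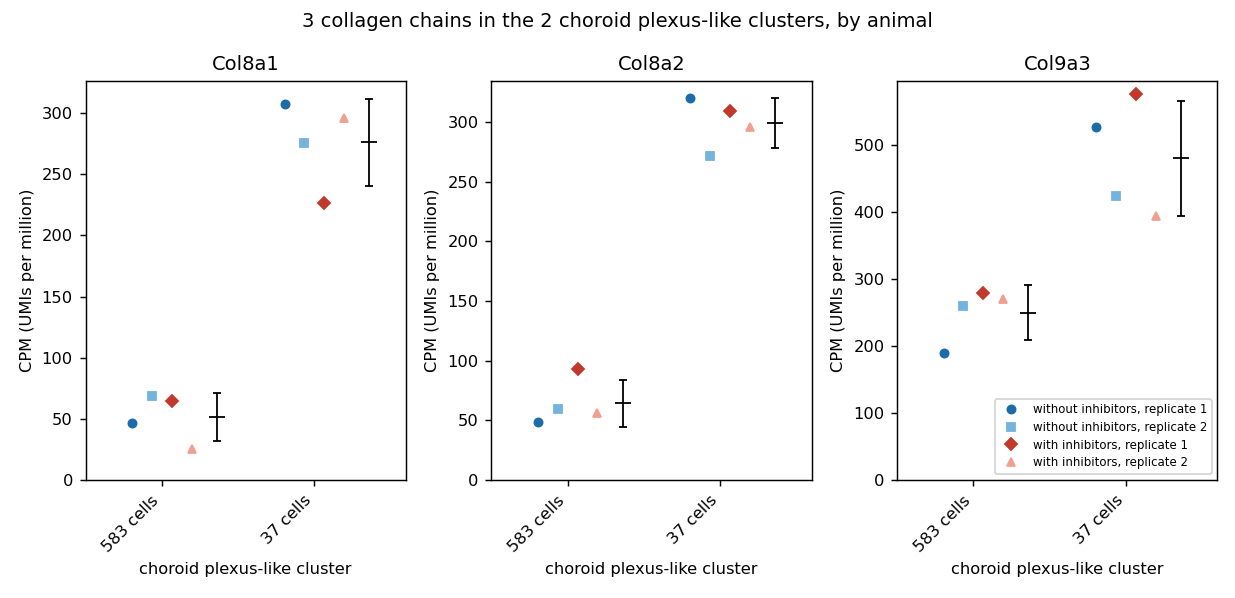
CPM (UMIs per 1000000) of Col8a1, Col8a2 and Col9a3 in the 583-cell and the 37-cell choroid plexus-like cluster, with a symbol per animal and the mean ± SD over 4 animals in black. The 37 deep cells lie above the 583 in every animal for each chain, while animals with and without inhibitors overlap within clusters, except for Col9a3 in the 583 cells, which is higher with inhibitors.

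Whether the inhibitors moved the chains was tested on UMIs summed per animal and class, with edgeR's quasi-likelihood test fitted over all genes. The call rule asked for a p under 0.05 after Benjamini-Hochberg adjustment together with a log2 fold change beyond 0.58 in either direction, and fold changes are levels without over levels with inhibitors. In 13 classes, 62 pairs of a chain and a class passed the filter on low counts, from 29 chains and 11 classes, and 1 pair was called. Of all genes tested in a class, 0% to 5.21% were called, the highest share in choroid plexus-like cells. At an unadjusted p under 0.05 there were 3 pairs, and DESeq2 called 0 pairs with 1 at an unadjusted p under 0.05. The 3 pairs by edgeR lay in astrocyte-like, choroid plexus-like and oligodendrocyte-like cells. There 414 of 8358, 959 of 4664 and 633 of 6468 genes had an unadjusted p under 0.05, so 3 pairs do not set the chains apart. The level was higher without inhibitors in 27 of the 62 pairs, and 56 had an absolute log2 fold change under 0.58. With 2 animals against 2, an exact permutation test of single values cannot go below p = 0.333 (two-sided).

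The called pair was Col8a1 in choroid plexus-like cells, 1 of 4 chains tested in a class where 5.21% of all genes tested were called. Col8a1 stood at 105 and 129 CPM without and 84.3 and 61.8 CPM with inhibitors, and the groups did not overlap. The log2 fold change was 0.80 (SE 0.24, edgeR adjusted p = 0.0307). Without the 37 deep cells, an alternative chosen after the data were seen, it was 0.38 (SE 0.35, edgeR adjusted p = 0.612). In the deep cells themselves Col8a1 stood at 307 and 276 CPM without and 227 and 296 CPM with inhibitors, which overlap. The call was also lost with DESeq2 (adjusted p = 0.198) and without replicate 2 of the animals without inhibitors (edgeR adjusted p = 0.0946), replicate 1 with inhibitors (0.0860) or replicate 2 with inhibitors (0.225). The number of deep cells moved with the group. Choroid plexus markers in the class summed to 360714 and 281381 CPM without and 227340 and 215771 CPM with inhibitors, fibroblast markers to 171 and 160.01 CPM without and 94.2 and 115 CPM with inhibitors and ependymal markers to 500.2 and 585 CPM without and 826 and 821 CPM with inhibitors. Their part in the result was not tested.

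The other main chains of these cells were not called. Col8a2 had a log2 fold change of 0.28 (SE 0.22, edgeR adjusted p = 0.537) and Col9a3 of 0.0880 (SE 0.14, edgeR adjusted p = 0.812), and both were negative without the deep cells.

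In vascular classes no chain was called. Of 7 chains tested in endothelial-like cells (0.048% of genes called), Col4a1 had a log2 fold change of -0.16 (SE 0.12), Col4a2 of -0.14 (SE 0.14) and Lamb2 of 0.21 (SE 0.14). Of 9 chains in smooth muscle-like cells (0.199% of genes called), Col4a1 had -0.27 (SE 0.20), Col4a2 0.0475 (SE 0.24), Lamb2 -0.11 (SE 0.24) and Lamc1 -0.38 (SE 0.28). Of 2 chains in pericyte-like cells (0% of genes called), Col4a1 had 0.0795 (SE 0.39) and Lamc1 0.37 (SE 0.40).

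The inhibitor effect was also compared between endothelial-like cells and mural-like cells (pericyte-like and smooth muscle-like summed), with the animal as a block. None of 14 chains was called for the difference by edgeR or DESeq2, where 0.0672% of 7440 genes were called by edgeR, and none had an unadjusted p under 0.05 by either tool. The difference of log2 fold changes, endothelial minus mural, was 0.0495 for Col4a1 (SE 0.20) and -0.0794 for Col4a2 (SE 0.25). Without the 149 smooth muscle-like cells that carry endothelial markers, none of 15 chains was called.

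Fibroblast-like cells had 15 chains tested and none called (0.473% of genes called). Col3a1 had a log2 fold change of 0.52 (SE 0.28, edgeR adjusted p = 0.844) and Col25a1 of 0.40 (SE 0.29). The type I and type VI chains were close to 0, with Col1a2 at 0.0400 (SE 0.20), Col1a1 at 0.0637 (SE 0.26), Col6a1 at 0.0218 (SE 0.25) and Col6a2 at 0.00927 (SE 0.24). Col12a1 (0.12), Col23a1 (0.16), Col8a2 (0.0566), Col8a1 (-0.11) and Lamb2 (-0.21) were within 1 SE of 0.

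In microglia-like cells, where 0.474% of genes were called, Col27a1 had a log2 fold change of -0.15 (SE 0.12, edgeR adjusted p = 0.954) and neither of 2 chains was called. Of 6 chains in ependymal-like cells (0% of genes called), Col8a2 had -0.0323 (SE 0.24). In oligodendrocyte precursor-like cells (0% of genes called) the 1 chain tested was Col9a3, at -0.0441 (SE 0.39). The other pairs at an unadjusted p under 0.05, named after their values were seen, were Col23a1 in astrocyte-like cells, at 1.15 (SE 0.51, edgeR adjusted p = 0.956), and Lamc1 in oligodendrocyte-like cells, at -0.82 (SE 0.38, edgeR adjusted p = 0.478). Without the Gdf10-led cluster, an alternative chosen after the data were seen, Col23a1 in astrocyte-like cells was at 2.39 (SE 0.69, edgeR adjusted p = 0.449), and 0 of 12 chains were called there. No call was made for 12 chains in astrocyte-like (0.0479% of genes called), 3 in oligodendrocyte-like (0.201%) and 1 in neuron-like cells (0.0288%). Macrophage or monocyte-like (0.698%) and neural progenitor-like cells (0.0808%) had no chain that passed the filter.

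Over all cells summed, 36 chains were tested and none was called by edgeR or DESeq2, where 0.0435% of genes were called by edgeR. At an unadjusted p under 0.05 there were 2 of the 36 chains by either tool. Of 13784 genes, 911 by edgeR and 270 by DESeq2 had such a p, so by edgeR the 2 do not set the chains apart. By edgeR the 2 chains were Col8a1, with a log2 fold change of 0.97 (SE 0.24, edgeR adjusted p = 0.430), and Col9a3, with 0.61 (SE 0.18, edgeR adjusted p = 0.625). Choroid plexus-like cells held 69.7% of Col8a1 UMIs and 56.9% of Col9a3 UMIs, and their summed UMIs were 667782 and 781223 without and 403246 and 226643 with inhibitors. The part of these cell numbers in the values over all cells was not tested. The median log2 fold change of the 36 chains was -0.12, beside -0.00659 over all genes tested.

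**Figure D5:**
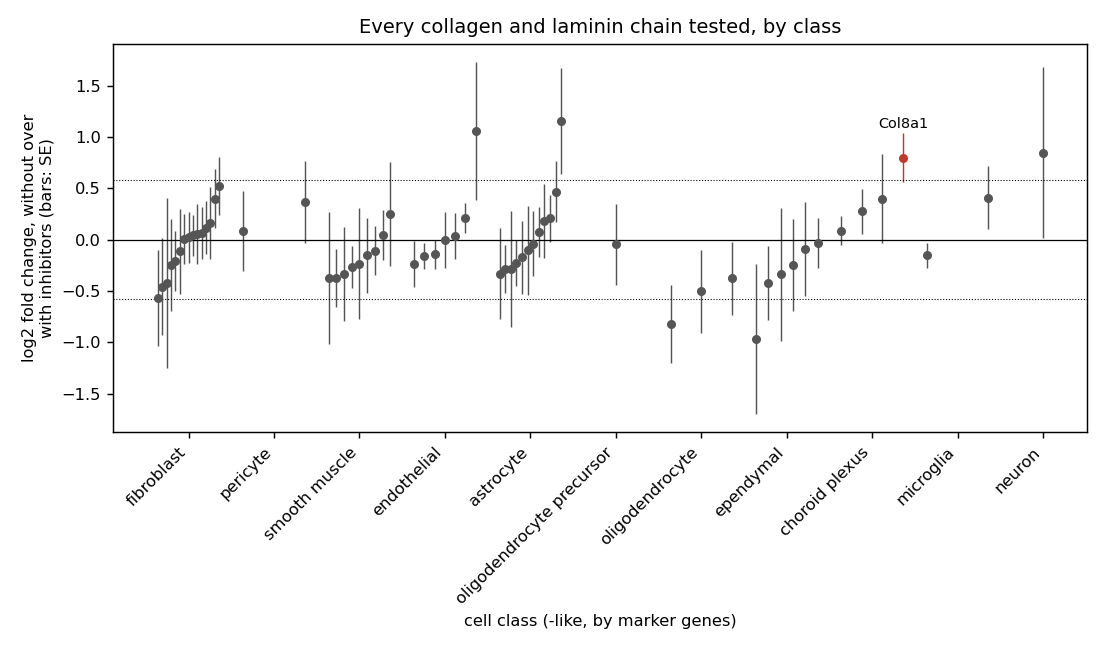
Points are log2 fold changes (without over with inhibitors) of the chains tested in each class, bars are SE, and dotted lines mark 0.58 in either direction. Col8a1 in choroid plexus-like cells, where 5.21% of all genes tested were called, is in red and is the 1 called of 62 pairs.

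Genes that assemble, bind or cut these chains were read from lists. Of 10 basement membrane partners, such as nidogens and perlecan, and 13 of 15 receptors that could be tested, none was called in any class. At most 7 genes of either list were tested in a class, where 0% to 5.21% of all genes were called, so a count of 0 says little about them. Of 27 tested of 31 genes for collagen folding and cross-linking, 3 were called in any class, all higher without inhibitors and in choroid plexus-like cells, where 7 of the list were tested and 5.21% of all genes were called. These were Ppib, a prolyl isomerase of the endoplasmic reticulum, with a log2 fold change of 1.22 (SE 0.21, edgeR adjusted p = 9.9e-05), and the procollagen cleavage enhancers Pcolce2, with 1.07 (SE 0.27, edgeR adjusted p = 0.00766), and Pcolce, with 0.79 (SE 0.22, edgeR adjusted p = 0.0191). Prelp, a leucine-rich matrix proteoglycan, was the 1 call among 46 tested of 52 other matrix genes, in the same cells (8 of the list tested there), with 1.25 (SE 0.26, edgeR adjusted p = 0.00118). Without the 37 deep cells, an alternative chosen after the data were seen, the log2 fold changes were 1.23 (SE 0.23, edgeR adjusted p = 0.00410) for Ppib, 1.22 (SE 0.27, edgeR adjusted p = 0.0151) for Pcolce and 1.28 (SE 0.30, edgeR adjusted p = 0.0188) for Prelp, which stayed called, and 0.94 (SE 0.28, edgeR adjusted p = 0.0725) for Pcolce2, which did not. Adamts1, a protease that cleaves proteoglycans, was the 1 call among 14 tested of 19 proteases and inhibitors, higher without inhibitors by 2.26 (SE 0.49, edgeR adjusted p = 0.00376) in microglia-like cells, where 5 of the list were tested and 0.474% of all genes were called.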

How the data were processed

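Gene-by-cell matrices of UMI counts were deposited for 4 libraries, 1 per animal. Per the labels and the study's methods, the authors made them from 10x 3′ v2 libraries with Cell Ranger 3.0.0 on mm10 (GRCm38) and a filtered Ensembl annotation, with no normalization; the submitters' processing notes also name bcl2fastq and Seurat. Only these counts were used, with their gene and barcode lists.

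Barcodes with at least 400 genes and at most 20% mitochondrial UMIs were kept, and simulated-doublet scores removed 206 barcodes. Counts were scaled to 10000 per cell for 2000 variable genes, 30 components, 15 neighbours and Leiden clustering at resolution 1 (leidenalg 0.10.2), which gave 26 clusters. The chains and other matrix genes, mitochondrial genes and a list of cell activation genes were left out of the clustering. A cluster was named where at least 3 markers of a class stood out. UMIs were summed per animal and class. Classes with at least 10 cells in every animal were tested with edgeR 4.0.16 (quasi-likelihood, group alone, filterByExpr, Benjamini-Hochberg adjustment over all genes tested in the class) under R 4.3.3, a setup tested on simulated data. A simulated log2 fold change of 1 was recovered for 28.1% of genes in choroid plexus-like and 29.2% in smooth muscle-like cells. In endothelial-like and fibroblast-like cells it was recovered for 32.3% and 38.3%. A change of 2 was recovered for 85.9% to 99%. The simulation used a fixed dispersion, not that of the data, and at that setting changes of 1 were mostly missed in these classes. DESeq2 1.42.0, other normalization, filters, clusterings, a replicate block and leaving out each animal were alternatives. The chains and lists were chosen with earlier results of these data known.

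Chains were described by class from a mean of 50 CPM, and named in the inhibitor comparison if called or, per class, among those at 100 CPM or more; list genes were named if called, at most 5 per list. Each group has 2 animals, all in 1 batch by the labels, so p-values rest on the spread between these animals. Counting limits cover counting error only. Of the 55 chains, 15 overlap a gene on the opposite strand and 1 (Lamb3) a gene on its own strand, so the counts of Lamb3 are uncertain. Promoter sequences are from RefSeq (GRCm38) and matched 40 chains.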

Additional observations from a re-analysis of the deposited data

How the results depend on the processing

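The call of Col8a1 in choroid plexus-like cells was lost in several alternatives. The number of chains called in that class was 0 rather than 1 with DESeq2, with no filter on low counts, with stricter cells (at least 600 genes and at most 10% mitochondrial UMIs) and without the 37 deep cells, and it was 0 to 1 when animals were left out in turn. The log2 fold change kept its direction throughout, at 0.65 to 1.09 with an animal left out and 0.56 with stricter cells. Over all cells, no filter on low counts gave 2 called of 53 chains tested (Col8a1 and Col9a3), where 169 of 19978 genes were called. No chain was called for the difference between endothelial-like and mural-like cells in any alternative. In the other 12 classes the count of called chains was 0 in every alternative run. The causes of these changes were not tested.

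Directions of small fold changes turned. Without the deep cells, Col9a3 was at -0.10 and Col8a2 at -0.36 in choroid plexus-like cells (log2). With stricter cells, the values were -0.00940 for Col8a2 and -0.31 for Col23a1 in fibroblast-like, 0.84 for Col9a3 in oligodendrocyte precursor-like and -0.80 for Col4a1 in pericyte-like cells. With no filter, they were -0.00117 for Col6a2 in fibroblast-like and 0.0595 for Col9a3 in precursor-like cells. With matrix genes kept in the clustering, they were -0.00542 for Col1a2 in fibroblast-like, 0.00672 for Col9a3 in precursor-like and -0.0484 for Col4a1 in pericyte-like cells. In fibroblast-like cells Col6a2 was at -0.00521 with DESeq2, and with doublets kept Col6a2 was at -0.00886 and Col6a1 at -0.00759. With an animal left out, fibroblast-like values ran from -0.0240 to 0.67 for Col25a1, -0.11 to 0.28 for Col8a2, -0.29 to 0.30 for Col6a2, -0.28 to 0.20 for Col6a1, -0.0112 to 0.19 for Col12a1, -0.55 to 0.27 for Lamb2, -0.19 to 0.38 for Col23a1 and -0.26 to 0.48 for Col1a1. Ranges that did not cross 0 but were wide included 0.19 to 0.98 for Col3a1 in fibroblast-like and 0.0848 to 0.71 for Lamc1 in pericyte-like cells. The other ranges that crossed 0 were -0.16 to 0.11 for Col8a2 in ependymal-like, -0.44 to 0.33 for Col9a3 in precursor-like, -0.37 to 0.43 for Col4a1 in pericyte-like, and -0.0773 to 0.14 for Col4a2 and -0.53 to 0.27 for Lamb2 in smooth muscle-like cells. The log2 ratio of the highest to the next class was also recomputed for the 29 chains. Of these ratios, 287 moved by less than 1 SD between animals and 11 by more. Means with an animal left out share most of their animals, so they could hardly move that far. With CPM scaled by edgeR's TMM factors, 6 moved by more and 23 by less. With only the 38 smooth muscle-like cells that had few endothelial markers, 3 moved by more and 5 by less, and with stricter cells 2 and 27. Of the shares of cells recomputed without thinning or at 600 UMIs per cell, 24 moved by less than 1 SD and 34 by more. At 600 UMIs, 37.5% of fibroblast-like cells had a Col1a2 UMI, 12.2% of endothelial-like cells a Col4a1 UMI and 10.4% of microglia-like cells a Col27a1 UMI.

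The labels give both groups replicate numbers 1 and 2. Deviations of same-numbered animals had a correlation of 0.13 over all cells, and from -0.24 to 0.37 between classes. The labels do not say what a number marks, and 2 pairs cannot show whether the numbers pair the animals. Olfactory ensheathing markers over all cells summed to 597 and 112 CPM without and 686 and 80.9 CPM with inhibitors, higher in replicate 1 of each group. With the replicate block, Col8a1 in choroid plexus-like cells had a log2 fold change of 0.80 (edgeR adjusted p = 0.0111), and no call of a chain changed. Over all cells the genes called numbered 6 as reported, 45 with the replicate block, 44 with DESeq2 and 169 with no filter. They numbered 81 without replicate 1 and 64 without replicate 2 of the animals without inhibitors, and 1 and 0 without replicate 1 and 2 of those with inhibitors. When an animal is left out, the lone animal of its group is assumed to vary like the other group. Depth limits the rare chains, since pericyte-like cells held 26710 to 47039 UMIs per animal.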
